A study of Rattus norvegicus with 6 samples.

Results

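The 10 genes described here make up the core of corticosteroid signaling and feedback. They are the glucocorticoid and mineralocorticoid receptors (Nr3c1 and Nr3c2), the receptor co-chaperones Fkbp5 and Fkbp4, the prereceptor enzymes Hsd11b1 and Hsd11b2, and 4 well known glucocorticoid targets (Tsc22d3, Sgk1, Zbtb16 and Anxa1). They were taken by symbol, for their known function, with earlier results of these data already known. All 10 were found among the 33294 gene symbols of the count tables, and all 10 were among the 17292 genes that passed the filter on low counts. The pituitary glands came from male Sprague-Dawley rats killed at 11 weeks of age, with 1 library per rat and 3 rats per group. The mothers of the nicotine group had carried a mini-pump with nicotine tartrate in saline (6 mg/kg per day), implanted during pregnancy and rated to run past birth, and those of the control group a pump with saline alone. The pump was in the mother and not in the offspring, and which pups shared a mother is not given in the sources used here, so p-values measure only the spread between these rats. Rats and their libraries are numbered 1 to 3 within a group, as in the labels, and a number is not taken to tie a nicotine rat to a control rat. The extraction text in the labels speaks of testis, although the labels name the tissue as pituitary gland.

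Totals ranged from 28318383 to 85977002 counts per library, and nicotine rat 2 was the deepest. The read numbers listed in the paper conflict with this, since there the control libraries are the larger ones. Matched by order, each nicotine library here holds more counts than the reads listed for it. Matched by order to the reads listed for the other group, each library holds fewer counts than reads, by a similar share in all of them. Groups follow the labels of the deposited samples. The direction of every difference depends on them and would reverse if the groups were exchanged. The paper reports Acta2 as higher after nicotine, which is also its direction under these labels. That result came from these same libraries, so it cannot check the labels. The source of the conflict was not tested. Levels are given as CPM, counts scaled to a common library size after TMM normalization. The pituitary markers were high in every library, with Gh1, the growth hormone gene, between 52429 and 115788 CPM and Pomc, the precursor of corticotropin, between 20412 and 71827 CPM. These were bulk libraries, so fewer cells of a type and less RNA per cell cannot be told apart. No 2 libraries held identical counts. The tables give no transcript lengths, so a ratio of the counts of 2 genes is read only between libraries, and a ranking by CPM serves only to choose which list genes are named.

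Glucocorticoids from the adrenal gland restrain their own production by acting on the corticotrophs of the pituitary, where the glucocorticoid receptor lowers transcription of Pomc. The unliganded receptor sits in a complex with Hsp90, and the immunophilin Fkbp5 holds it in a state of low hormone affinity while Fkbp4 favors its transport to the nucleus. The enzyme encoded by Hsd11b1 regenerates active corticosterone from its inert keto form, and the one encoded by Hsd11b2 does the opposite. Fkbp5, Tsc22d3, Zbtb16 and Sgk1 are classical genes induced by the hormone-bound receptor, and Anxa1 carries a paracrine part of the feedback from folliculostellate cells.

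The promoters of Fkbp5 and Tsc22d3 are shown because these are the glucocorticoid-induced genes of the 10 with the smallest unadjusted p, and because the receptor acts on such genes by binding DNA. RefSeq promoter sequences (GRCr8, 250 bases before to 50 after a start) were at hand for 6 of the 10 genes, with 11 starts in all, and were searched on both strands. The other 4 were Nr3c2, Hsd11b1, Hsd11b2 and Zbtb16. The count tables use another build, rn7, so these positions belong to GRCr8 alone. The full palindromic glucocorticoid response element was in 0 of the 11, against 0.439% of all 33469 promoters of the same length. Its core, ACANNNTGT, which lies within the full element, was in 1 of the 11, at a Tsc22d3 start, against 6.86% of all promoters. The Fkbp5 window, 77% G and C, held a CCAAT box, as did 37.5% of all promoters. Below, capitals mark CCAAT in Fkbp5 (chr20:6543506-6543805, minus strand) and the palindrome core in Tsc22d3 (chrX:109065381-109065680, minus strand, the second of 3 listed starts).
Fkbp5: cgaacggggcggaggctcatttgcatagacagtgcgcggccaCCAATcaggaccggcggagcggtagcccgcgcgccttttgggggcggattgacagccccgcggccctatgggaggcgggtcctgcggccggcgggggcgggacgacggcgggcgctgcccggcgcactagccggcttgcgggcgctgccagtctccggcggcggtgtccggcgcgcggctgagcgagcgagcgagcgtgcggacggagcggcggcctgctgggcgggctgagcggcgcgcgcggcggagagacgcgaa
Tsc22d3: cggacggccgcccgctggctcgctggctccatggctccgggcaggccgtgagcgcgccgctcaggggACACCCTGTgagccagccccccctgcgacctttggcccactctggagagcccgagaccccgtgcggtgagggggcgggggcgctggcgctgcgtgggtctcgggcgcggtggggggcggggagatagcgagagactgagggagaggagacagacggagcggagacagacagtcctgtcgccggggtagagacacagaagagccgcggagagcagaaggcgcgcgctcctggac
A match describes the letters of the window and shows no binding, and responsive elements outside such a window were not searched.

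None of the 10 genes was differentially expressed at the thresholds of the study (fold change over 1.5, adjusted p under 0.1). By the quasi-likelihood test of edgeR, 0 of the 10 passed, against 0% of all genes tested, and 1 of the 10 (Fkbp5) had an unadjusted p under 0.05, against 6.14% of all genes (3.13% with a higher level after nicotine, as Fkbp5 had, and 3.01% with a lower level). DESeq2 called 0 of the 10, against 0.335% of all genes, and gave 1 of the 10 an unadjusted p under 0.05, against 6.1%. The nicotine and control libraries did not overlap for 1 of the 10, again Fkbp5, against 11.3% of all genes. The log2 fold change was above 0 for 5 of the 10 and their median was 0.08, beside 51% and 0.01 for all genes tested. A count of 1 of 10 lies near these backgrounds.

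**Figure D1:**
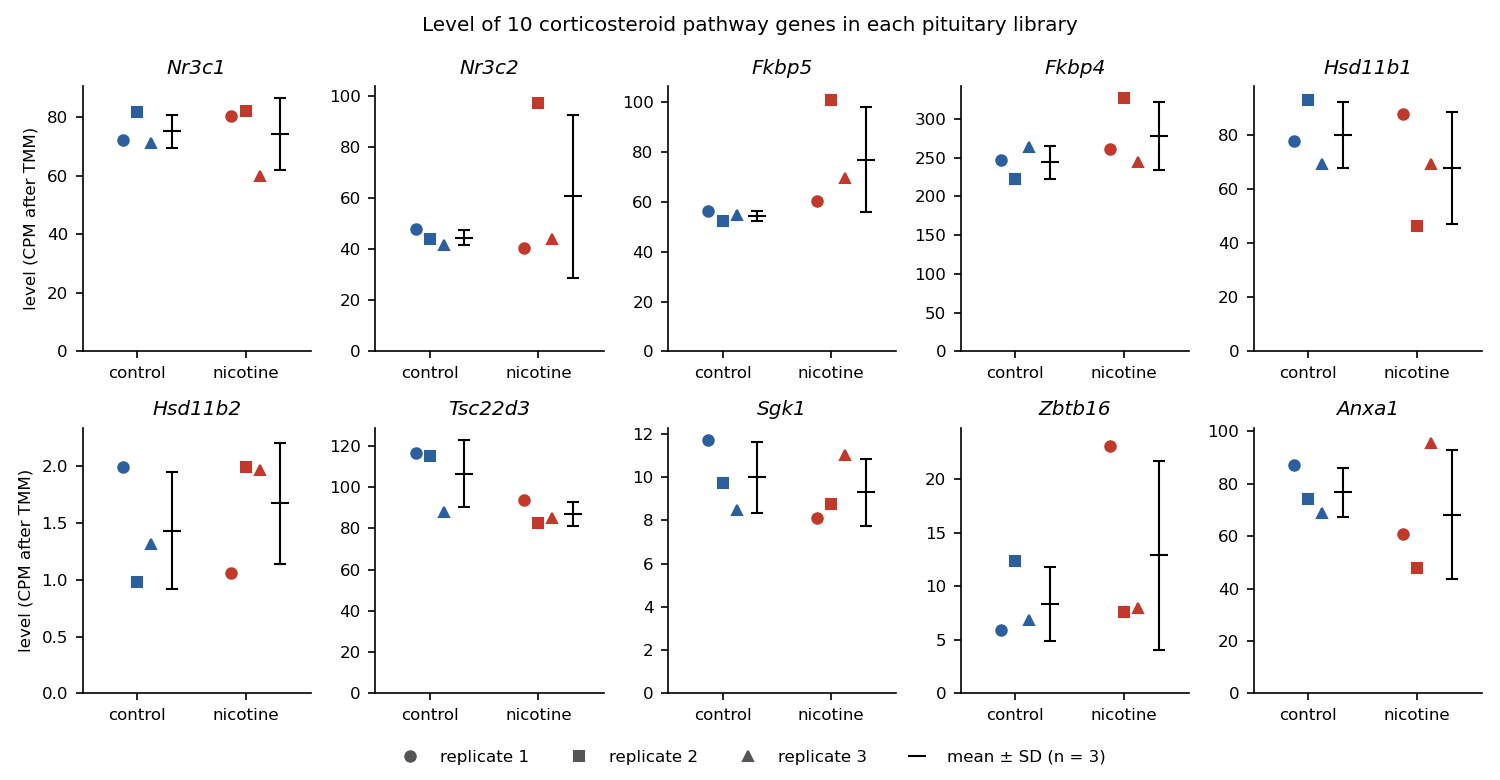
Level of each of the 10 genes (vertical axes, CPM after TMM, each starting at 0) in the 3 control and 3 nicotine libraries, with symbols for the replicate number and the mean ± SD beside them. Fkbp5 is the gene whose nicotine points all lie above its control points, while Nr3c2 at 97.4 CPM and Zbtb16 at 23.1 CPM each have a single nicotine point far above the other 5.

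Nr3c1, the glucocorticoid receptor itself, was at 80.5, 82.2 and 59.9 CPM in nicotine rats 1 to 3. It was at 72.3, 81.7 and 71.3 CPM in control rats 1 to 3. The groups overlapped throughout, with means of 74.2 ± 12.4 CPM in nicotine rats against 75.1 ± 5.73 CPM in control rats (SD, n = 3 each). The log2 fold change of -0.02 ± 0.17 (SE, edgeR adjusted p = 0.986) was smaller than its error, and its sign turned without nicotine rat 3 (0.12), without control rat 2 (0.05) and with library sizes alone (0.04). The gene-level counts do not separate the receptor's isoforms.

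Nr3c2, the mineralocorticoid receptor, binds corticosterone with higher affinity than Nr3c1 does. Its level was 40.5, 97.4 and 43.97 CPM in nicotine rats 1 to 3, and 47.8, 43.9 and 41.8 CPM in control rats 1 to 3. Nicotine rat 2 thus held more than any other library, and the other 5 lay between 40.5 and 47.8 CPM. Its log2 difference was 0.45 ± 0.29 (SE, edgeR adjusted p = 0.832), and it turned to -0.08 without nicotine rat 2 (edgeR adjusted p = 0.973).

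The balance of both receptors does not depend on how libraries are scaled. The count of Nr3c1 was 1.99, 0.844 and 1.36 times that of Nr3c2 in nicotine rats 1 to 3. In control rats 1 to 3 it was 1.51, 1.86 and 1.70 times as large. The group means of the log2 ratio were 0.40 ± 0.62 (SD, n = 3) and 0.75 ± 0.15 (SD, n = 3). Their difference of -0.36 did not exceed the spread between rats (exact two-sided permutation test, p = 0.5), and it was -0.04 without nicotine rat 2.

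Fkbp5, the co-chaperone that the receptor induces and that in turn dampens it, was the gene with the clearest separation. Its level was 60.6, 101 and 69.5 CPM in nicotine rats 1 to 3. In control rats 1 to 3 it was 56.3, 52.4 and 54.6 CPM. Every nicotine library lay above every control library, and the controls lay close together at 54.4 ± 1.93 CPM (SD, n = 3) while the nicotine rats spread over 77.0 ± 21.2 CPM (SD, n = 3). This was a 1.42-fold higher level, or a log2 fold change of 0.50 ± 0.19 (SE), with an edgeR p of 0.0258 before and 0.800 after adjustment. The exact two-sided permutation test gave p = 0.1, the smallest that 3 libraries against 3 allow. Nicotine rat 2 set much of the size, since without it the log2 fold change was 0.25 (edgeR adjusted p = 0.839).

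Fkbp4, which opposes Fkbp5 in the same complex, was at 261, 327 and 245 CPM in nicotine rats 1 to 3. Control rats 1 to 3 held 247, 222 and 264 CPM. Only nicotine rat 2 lay above all controls, for a log2 fold change of 0.19 ± 0.17 (SE, edgeR adjusted p = 0.854). It ranged from 0.04 without nicotine rat 2 to 0.27 without nicotine rat 3.

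Within a library, the count of Fkbp5 was 0.232, 0.309 and 0.284 times that of Fkbp4 in nicotine rats 1 to 3. The same ratio was 0.228, 0.236 and 0.207 in control rats 1 to 3. Nicotine rats 2 and 3 lay above the controls, whereas nicotine rat 1 lay between them. The log2 ratio differed by 0.29 between groups (exact two-sided permutation test, p = 0.2), from -2.16 ± 0.10 (SD, n = 3) in controls to -1.87 ± 0.21 (SD, n = 3) after nicotine.

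**Figure D2:**
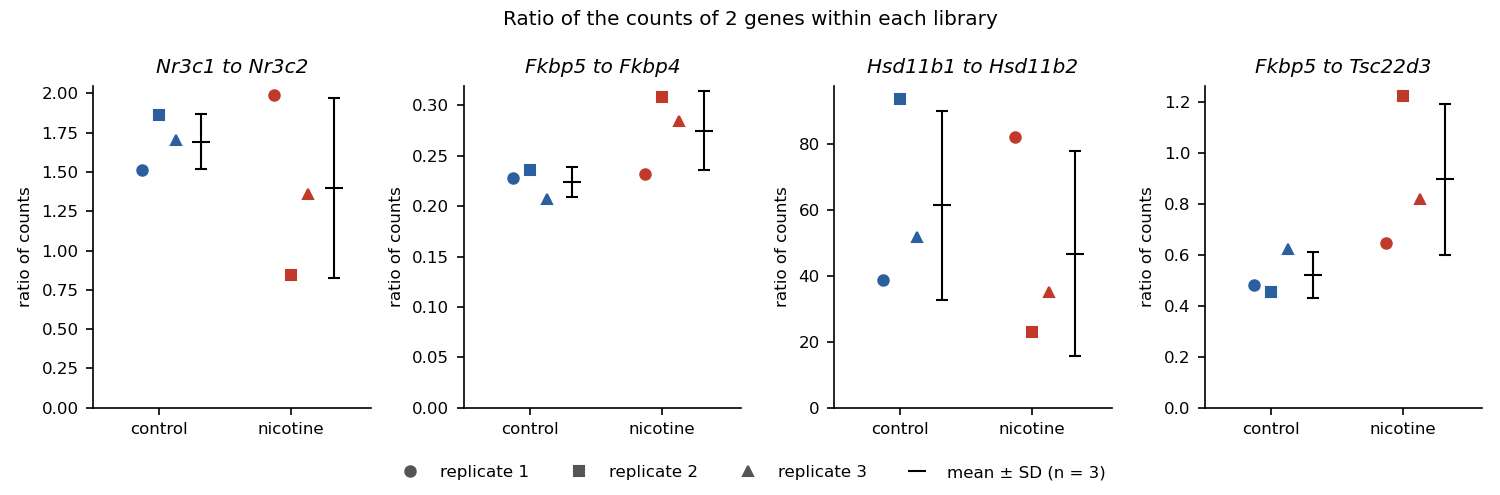
Ratio of the counts of 2 genes within each library (vertical axes, no unit, each starting at 0), for the 3 control and 3 nicotine libraries, with the mean ± SD beside the points. The ratios of the receptors, the co-chaperones and the enzymes overlap between groups, and the ratio of Fkbp5 to Tsc22d3, which was chosen after its values were seen, is 0.646 to 1.22 after nicotine and 0.455 to 0.622 in controls.

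Hsd11b1, which regenerates corticosterone inside cells, was at 88.0, 46.4 and 69.4 CPM in nicotine rats 1 to 3, and at 78.1, 93.1 and 69.3 CPM in control rats 1 to 3. Nicotine rat 2 was the lowest of the 6 libraries and control rat 2 the highest. For Hsd11b1 the log2 difference was -0.24 ± 0.22 (SE, edgeR adjusted p = 0.854). It ranged from -0.47 without nicotine rat 1 to -0.04 without nicotine rat 2.

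Hsd11b2, which inactivates corticosterone and so protects the mineralocorticoid receptor in kidney, had few reads. Its counts were 50, 184 and 119 in nicotine rats 1 to 3 and 54, 52 and 50 in control rats 1 to 3. Scaled for depth these were 1.06, 2.00 and 1.97 CPM against 1.99, 0.984 and 1.32 CPM, so both groups held libraries near 1 and near 2 CPM. The log2 fold change was 0.30 ± 0.36 (SE, edgeR adjusted p = 0.885), and it ranged from 0.06 without control rat 2 to 0.58 without control rat 1.

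The count of Hsd11b1 was 82.2, 23.1 and 35.2 times that of Hsd11b2 in nicotine rats 1 to 3, and 38.8, 93.8 and 52.0 times in control rats 1 to 3, after 0.5 was added to both counts. This ratio varied widely within each group, and its log2 difference of -0.50 was within that spread (exact two-sided permutation test, p = 0.4). It was -0.09 without nicotine rat 2 and -0.15 without control rat 2, but -1.01 without nicotine rat 1 and -0.78 without control rat 1.

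Among the target genes, Tsc22d3, which encodes the leucine zipper protein GILZ, pointed the other way from Fkbp5. Its level was 93.7, 82.7 and 85.0 CPM in nicotine rats 1 to 3, and 117, 115 and 87.8 CPM in control rats 1 to 3. Control rats 1 and 2 lay above all nicotine libraries, but control rat 3 lay below nicotine rat 1. The means were 87.1 ± 5.81 CPM (SD, n = 3) and 107 ± 16.3 CPM (SD, n = 3), a log2 fold change of -0.29 ± 0.16 (SE, edgeR adjusted p = 0.821). The value stayed between -0.41 and -0.22 when each library was left out in turn.

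Set against each other within a library, Fkbp5 counts were 0.646, 1.22 and 0.817 times those of Tsc22d3 in nicotine rats 1 to 3. In control rats 1 to 3 they were 0.483, 0.455 and 0.622 times as many. The groups did not overlap in this ratio, which was chosen after the values of both genes were seen and is therefore given without a test. The Tsc22d3 counts pool 3 listed starts and do not say which of them was used.

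Zbtb16, a zinc finger repressor that is strongly induced by glucocorticoids in many tissues, was the most variable of the 10. It was at 23.1, 7.61 and 7.96 CPM in nicotine rats 1 to 3, and at 5.95, 12.3 and 6.82 CPM in control rats 1 to 3. The highest library held 3.88 times the lowest, where the median over all genes tested was 1.70 times. The log2 fold change of 0.60 ± 0.43 (SE, edgeR adjusted p = 0.832) rested on nicotine rat 1 and was -0.12 without it. It was 1.00 without control rat 2 (edgeR adjusted p = 0.957).

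Sgk1, a kinase gene induced through both receptors, varied less within groups than the median gene tested. Its level was 8.08, 8.75 and 11.0 CPM in nicotine rats 1 to 3 and 11.7, 9.74 and 8.48 CPM in control rats 1 to 3. The ranges covered each other almost entirely, and the difference turned to 0.03 without control rat 1 (log2 fold change -0.10 ± 0.21, SE, edgeR adjusted p = 0.938).

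Anxa1 encodes annexin A1, through which folliculostellate cells act on neighboring corticotrophs. It was at 60.9, 48.0 and 95.7 CPM in nicotine rats 1 to 3, and at 87.2, 74.1 and 68.8 CPM in control rats 1 to 3. The nicotine group held both the highest and the lowest library, and the log2 fold change was -0.17 ± 0.23 (SE, edgeR adjusted p = 0.898). It was -0.49 without nicotine rat 3 and 0.02 without nicotine rat 2. The summed level of 8 folliculostellate markers was 365, 387 and 487 CPM in nicotine rats 1 to 3 and 338 to 427 CPM in controls. Nicotine rat 3 was thus highest for this sum as well as for Anxa1. Taken singly, it was highest for S100b, Aldh1a1 and Fxyd1. Nicotine rat 2, the lowest for Anxa1, was highest for Sox2, Slc15a2, Gpr37l1 and Cdh1, and control rat 2 for Gfap. S100b and Aldh1a1 together made up the largest part of each sum. Of the 8 markers, 7 had a log2 fold change above 0, as had 51% of all genes. At an unadjusted p under 0.05 in edgeR, 1 was higher, as were 3.13% of all genes. The part of folliculostellate cells in the Anxa1 values was not tested.

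**Figure D3:**
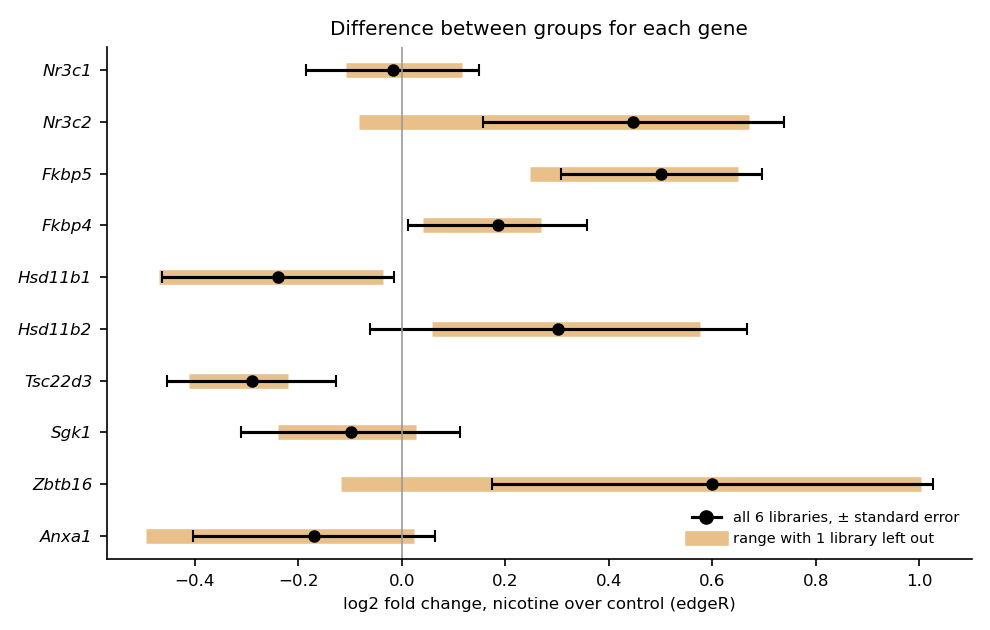
Log2 fold change of nicotine over control for each of the 10 genes (horizontal axis), with the value and standard error from all 6 libraries in black and the range over fits that each left out 1 library in orange. The orange range of Fkbp5 runs from 0.25 to 0.65 and that of Tsc22d3 from -0.41 to -0.22, whereas those of Nr3c1, Nr3c2, Sgk1, Zbtb16 and Anxa1 cross 0.

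Nicotine rat 2 stood at the end of the range for most of these genes. It was the highest of the 6 libraries for 5 of the 10 (Nr3c1, Nr3c2, Fkbp5, Fkbp4 and Hsd11b2), where it was highest for 26.9% of all genes tested. It was the lowest for 3 of the 10 (Hsd11b1, Tsc22d3 and Anxa1), against 26.8% of all genes. Without this library 0 of the 10 genes had an unadjusted p under 0.05 in edgeR. The count was also 0 without control rat 1 or control rat 2, where the log2 fold change of Fkbp5 was 0.53 and 0.48. It was 2 without nicotine rat 1, 2 without nicotine rat 3 and 1 without control rat 3. Over all genes tested, the numbers in these fits were 1619 of 17844, 1242 of 17408 and 854 of 17752. The median SD of log2 CPM within groups was 0.32 over the 10 genes and 0.27 over all genes tested. The genes whose log2 CPM followed that of Fkbp5 most closely over the 6 libraries were Ddx39b, Mtss1 and Fam3a, at a Pearson r of 0.995, 0.992 and 0.990 among 9726 genes with a mean of at least 10 CPM. These points share their libraries and depth, and nicotine rat 2 lay far from the rest.

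The partners of the receptor were measured as a list of 16 chaperone and coregulator genes, all of them tested. None passed in edgeR or DESeq2, and 0 had an unadjusted p under 0.05 in edgeR. Of the 16, 13 had a log2 fold change above 0, against 51% of all genes. The median was 0.11 beside 0.01 for all genes. The 3 with the highest mean CPM, which is not per length, were Hsp90ab1 and Hsp90aa1, which encode the Hsp90 of the receptor complex, and the Hsp70 family gene Hspa8. Their log2 fold changes were 0.11, 0.11 and 0.17. Hsp90ab1 was at 1690 ± 164 CPM in nicotine rats against 1567 ± 137 CPM in control rats (SD, n = 3 each).

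Of 23 other glucocorticoid-induced genes, 22 were tested and Tat, a liver enzyme gene, had at most 2 counts in a library. None passed in edgeR or DESeq2, and their median log2 fold change was -0.09, with 10 above and 12 below 0. At an unadjusted p under 0.05 in edgeR there were 1 with a higher level (Fam107a, log2 fold change 0.47) and 2 with a lower level (Cebpd at -0.64 and Rasd1 at -0.88). Over all genes, 3.13% were higher and 3.01% lower at such a p. Fam107a and Cebpd are named after their values were seen. The 3 with the highest mean CPM were Txnip, Glul and Rasd1. Txnip, a regulator of redox state and glucose uptake, was at 387 ± 146 CPM in nicotine rats against 294 ± 84.5 CPM in control rats (SD, n = 3 each). Glul, encoding glutamine synthetase, differed by -0.12 ± 0.19 (SE) on the log2 scale. Rasd1, a small G protein gene first described as induced by dexamethasone, was at 65.5, 73.1 and 69.5 CPM in nicotine rats 1 to 3 and at 230, 67.2 and 86.4 CPM in control rats 1 to 3 (edgeR adjusted p = 0.806). Control rat 1 alone held its high value.

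**Figure D4:**
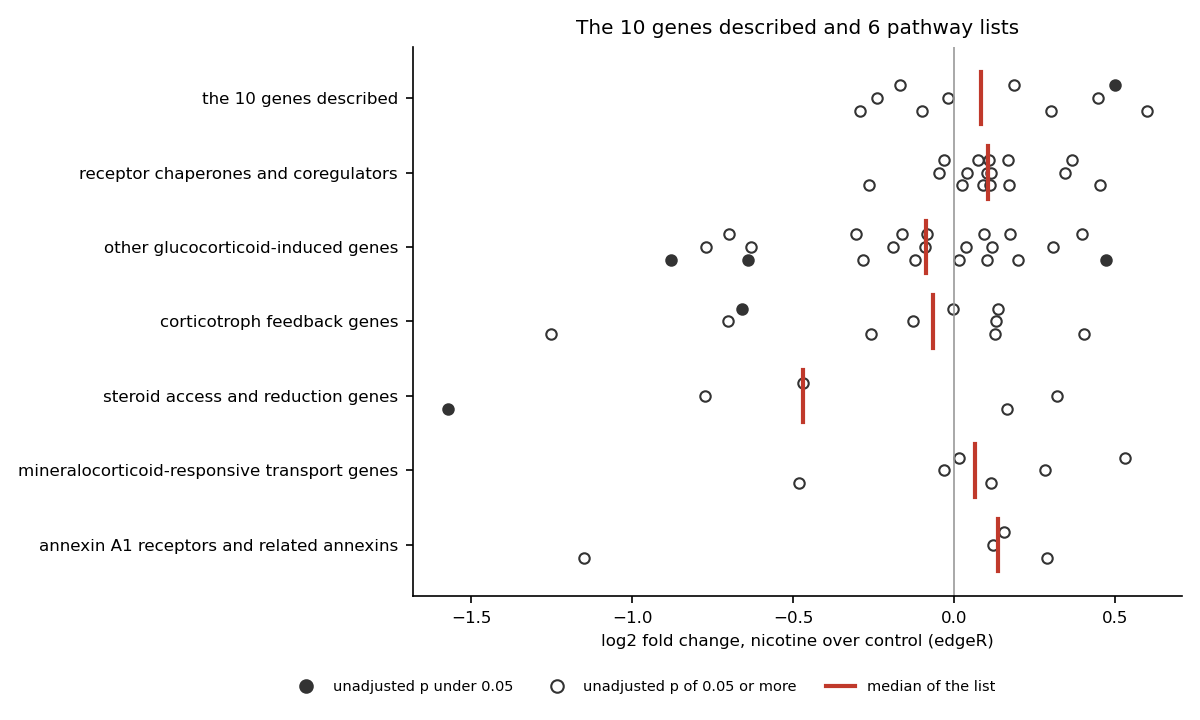
Log2 fold change of nicotine over control (horizontal axis) for the 10 genes and for the tested genes of 6 pathway lists, 1 point per gene, filled where the unadjusted p was under 0.05, with a red bar at each list's median. The points of each list lie on both sides of 0, and the medians run from -0.47 for 5 steroid access and reduction genes to 0.14 for 4 annexin-related genes.

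Of 11 corticotroph feedback genes, 10 were tested, and Avpr1b was not among the gene symbols of the count tables. None passed in edgeR or DESeq2, with 4 above and 6 below 0 and a median log2 fold change of -0.07. Pomc was at 27330, 20412 and 46403 CPM in nicotine rats 1 to 3 and at 45091, 36103 and 71827 CPM in control rats 1 to 3. The groups overlapped, with a difference of -0.70 ± 0.69 on the log2 scale (SE, edgeR adjusted p = 0.854). DESeq2 gave an unadjusted p of 0.0215 and an adjusted p of 0.662 for Pomc. Pcsk1, the convertase that cleaves its product, was at 173 ± 34.7 CPM (SD, n = 3) and 189 ± 16.2 CPM (SD, n = 3), and the cytokine receptor gene Lifr at 56.2 ± 5.82 and 51.3 ± 4.11 CPM (SD, n = 3 each). Nr4a1, an early gene of corticotropin-releasing hormone signaling, was at 18.6, 11.8 and 36.7 CPM in nicotine rats 1 to 3 and 111, 30.6 and 18.2 CPM in control rats 1 to 3. Control rat 1 was again the highest, and the log2 fold change was -1.25 ± 0.58 (SE, edgeR adjusted p = 0.807). Socs3, an inhibitor of cytokine signaling, is named after its values were seen. It was the gene of this list with an unadjusted p under 0.05 in edgeR (log2 fold change -0.66, edgeR adjusted p = 0.806). Over all genes, 3.01% were lower at such a p.

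Of 6 genes that govern how much steroid reaches the receptor, 5 were tested, and Serpina6, the plasma carrier of corticosterone, had at most 1 count in a library. None passed in edgeR or DESeq2, and 1 had an unadjusted p under 0.05 in edgeR (Abcb1a, lower, as for 3.01% of all genes). H6pd, which supplies the cofactor of the Hsd11b1 enzyme, was at 24.3 ± 5.76 CPM in nicotine rats against 19.5 ± 3.14 CPM in control rats (SD, n = 3 each). Akr1c14, a hydroxysteroid dehydrogenase gene, was at 13.0 ± 6.46 and 22.1 ± 4.93 CPM (SD, n = 3 each), and every nicotine library lay below every control library (log2 fold change -0.77 ± 0.35, SE, edgeR adjusted p = 0.807). Srd5a1, encoding a steroid reductase, was at 4.33 ± 1.54 and 3.90 ± 0.81 CPM (SD, n = 3 each). Abcb1a, a drug efflux pump gene that exports corticosteroids, had only 13, 8 and 18 reads in nicotine rats 1 to 3, against 14, 20 and 36 in control rats 1 to 3. It differed by -1.57 ± 0.57 (SE, edgeR adjusted p = 0.782), again with nicotine below control in CPM. Groups that lay apart in this direction made up 5.14% of all genes.

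Of the 6 mineralocorticoid-responsive transport genes 0 passed in edgeR or DESeq2, 0 had an unadjusted p under 0.05 in edgeR, and the median log2 fold change was 0.06. Atp1b1, which encodes the beta subunit of the sodium pump, was at 372 ± 72.6 CPM in nicotine rats against 368 ± 24.1 CPM in control rats (SD, n = 3 each). Nedd4l, a ubiquitin ligase gene for the epithelial sodium channel, differed by -0.03 and the channel subunit gene Scnn1a by 0.53 on the log2 scale, with adjusted p of 0.981 and 0.821 from edgeR.

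Of 6 genes for annexin A1 receptors and related annexins, 4 were tested, and the formyl peptide receptor genes Fpr1 and Fpr2 had at most 13 counts in a library. None of the 4 passed in edgeR or DESeq2, 0 had an unadjusted p under 0.05 in edgeR, and the median log2 fold change was 0.14. Anxa2 was at 237 ± 32.9 CPM in nicotine rats against 218 ± 25.1 CPM in control rats (SD, n = 3 each), and Anxa5 at 206 ± 38.6 and 185 ± 9.75 CPM (SD, n = 3 each). S100a11, whose product binds annexins, was at 59.0 ± 12.7 and 48.3 ± 2.21 CPM (SD, n = 3 each). The receptor gene Fpr3 had only 13, 6 and 15 counts in nicotine rats 1 to 3, against 1, 32 and 15 in control rats 1 to 3. Its level was 0.196 ± 0.114 and 0.346 ± 0.287 CPM (SD, n = 3 each). On the log2 scale this was -1.15 ± 0.71 (SE, edgeR adjusted p = 0.827).

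Markers of other cells differed between libraries beside these values. The summed level of 6 posterior lobe pituicyte markers was 144 to 239 CPM in the nicotine group, highest in nicotine rat 2, and 121 to 186 CPM in controls. Scn7a and Slc1a3 made up most of each sum. All 6 markers had a log2 fold change above 0, and 3 had an unadjusted p under 0.05 in edgeR. These were Rax, Nkx2-1 and Col25a1, named after their values were seen, at log2 fold changes of 1.40, 1.57 and 1.65. Their counts in control rat 3 were 11, 7 and 35. Nkx2-1 and Col25a1 did not overlap between groups, as 6.12% of all genes did not in this direction. Over all genes, 51% had a log2 fold change above 0. At an unadjusted p under 0.05 in edgeR, 3.13% were higher and 3.01% lower. Over the nicotine and control libraries, 5 endothelial markers, 3 of them higher at an unadjusted p under 0.05, summed to 150 to 251 and 124 to 163 CPM, and 5 smooth muscle and pericyte markers to 37.4 to 200 and 40.7 to 53.8 CPM. Tagln alone gave 138 CPM of the highest sum, in nicotine rat 3. All 5 smooth muscle and pericyte markers had a log2 fold change above 0, with a median of 0.94, and 2 had an unadjusted p under 0.05 in edgeR. Acta2, 1 of the 2, encoding smooth muscle actin and named after its values were seen, was at 2.74, 2.21 and 2.54 CPM in nicotine rats 1 to 3 and 0.258, 0.984 and 0.449 CPM in control rats 1 to 3. It did not overlap between groups and was called by DESeq2 (adjusted p = 0.00252) but not by edgeR (adjusted p = 0.492). The 6 macrophage markers summed to 107 to 238 CPM after nicotine and 184 to 258 CPM in controls, with all 6 log2 fold changes below 0 and 1 unadjusted p under 0.05 in edgeR. The 5 tested neutrophil markers summed to 20.2 to 22.5 CPM after nicotine, whereas control rats 1 to 3 held 131, 6.45 and 96.9 CPM. All 5 had an unadjusted p under 0.05 in edgeR with lower levels after nicotine, although control rat 2 lay below every nicotine rat in the sum. In DESeq2 only Mpo did (unadjusted p = 0.0142), and the others lay between 0.055 and 0.094. The exact two-sided permutation test gave p of 0.4 to 0.6. The 6 anterior hormone cell markers summed to 84969 to 135872 CPM and 79952 to 112603 CPM, a sum made up mainly of Gh1 and Prl. Lhb, the luteinizing hormone subunit gene, is named after its values were seen and was the 1 of these 6 with an unadjusted p under 0.05 in edgeR. It was at 216, 820 and 223 CPM in nicotine rats 1 to 3 and 154, 75.6 and 125 CPM in control rats 1 to 3, with every nicotine library above every control library (log2 fold change 1.83 ± 0.48, SE, edgeR adjusted p = 0.760). No listed marker was at 0 in all 6 libraries, and their part in the values of the 10 genes was not tested.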

How the data were processed

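RNA-seq was performed on pituitary glands of 3 nicotine-exposed and 3 control rats. The authors mapped paired-end stranded reads to rn7 with HISAT2 (2.1.0 in the submitters' processing notes) and assigned them to the UCSC ncbiRefSeq annotation with featureCounts. The deposited values are counts per gene symbol without normalization. The handling of multi-mapped reads, the strand setting and the counting of pairs are not given in the sources used here.

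Calculations were done in R 4.3.3. Groups were compared with edgeR 4.0.16 (filterByExpr, TMM, glmQLFit and glmQLFTest without a covariate) over 17292 genes, with Benjamini-Hochberg adjustment over all of them. Calls needed a fold change over 1.5 with adjusted p under 0.1, as in the study. DESeq2 1.42.0 was an alternative. Log2 CPM used a prior count of 2. Count ratios were compared by exact permutation tests, which cannot give a p under 0.1 here. The procedure was tested on simulated counts. Named genes were the 10 members and, per pathway list, every called gene or else the 3 with the highest mean CPM and the one with the largest log2 fold change, and the 3 genes correlated best with Fkbp5. Of the list genes so named, 2 are not reported here. Members and lists were chosen with earlier results of these data known. The replicate numbers were not treated as pairs in the main fit. The deviations of same-numbered libraries correlated at 0.03, -0.20 and -0.08. With 3 libraries per group these values cannot exclude a batch shared by number.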

Additional observations from a re-analysis of the deposited data

How the results depend on the processing

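Of the 10 genes 0 were called under any of the 12 alternatives, and likewise 0 of the pathway list genes. Of 120 log2 fold changes of the 10 genes under these alternatives 113 kept their direction. The others reversed, none of them called. Nr3c1 was 0.040 with library sizes alone, and with 1 library left out it ranged from -0.11 to 0.12, above 0 without nicotine replicate 3 or control replicate 2. Nr3c2 ranged from -0.084 (without nicotine replicate 2) to 0.67, Sgk1 from -0.24 to 0.027 (without control replicate 1), Zbtb16 from -0.12 (without nicotine replicate 1) to 1.00, and Anxa1 from -0.49 to 0.023 (without nicotine replicate 2). The number of all genes called was 0 with all libraries in edgeR. It was 58 in DESeq2, 1 with library sizes alone, 2 without a filter and 0 to 9 with 1 library left out (9 without nicotine replicate 3, 4 without control replicate 2, 1 without nicotine replicate 2). With the replicate number as a block, it was 2. The block left the difference of the log2 ratios at -0.36, 0.29 and -0.50 for the receptors, the co-chaperones and the enzymes, and changed no call of the 10 genes. In the fits that left out 1 library these differences lay between -0.65 and -0.04, between 0.20 and 0.41, and between -1.01 and -0.09. The causes were not tested. Depth limits the values of Hsd11b2, Abcb1a and Fpr3, which had at most 184 counts in a library.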
